A study of Mus musculus with 6 samples.

Results

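The 8 genes followed here set how a fat cell answers catecholamines and natriuretic peptides, and were measured by single-nucleus RNA sequencing of mouse white fat. They are the adrenergic receptors Adrb1, Adrb3, Adra1a and Adra2a, the natriuretic peptide receptors Npr1, Npr2 and Npr3, and the phosphodiesterase Pde3b. They were chosen by symbol, and each of the 8 symbols matched 1 row of the 56980 genes listed in the files. The nuclei came from female C57BL/6J mice in 3 groups of 2 libraries. Inguinal subcutaneous fat (SAT) was sampled from young mice of 2 months and old mice of 24 months, and visceral fat from around the gonads (VAT) is analysed here from the old mice. The sample labels give the older age as 24 months and the series text as 26 months, and the label's age is used here. The sources name no transgene or treatment, and both depots were taken from the same 2 mice of an age, though which VAT library belongs to which SAT library is not given in the sources used here. The depot comparison treats them as separate, and p-values measure the spread between libraries, which may be partly technical. The labels call every sample adipocytes, but only 7355 of the 27074 nuclei kept (27.2%) fell into clusters named adipocyte-like by their markers, and 3.02% to 65.4% of a library.

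In a fat cell, noradrenaline acting on beta-adrenergic receptors raises cyclic AMP through a stimulatory G protein, and cyclic AMP-dependent kinase then drives triglyceride breakdown. Alpha-2 receptors couple to inhibitory G proteins and oppose this, and alpha-1 receptors couple to phospholipase C and calcium. Natriuretic peptides from the heart act in parallel through guanylyl cyclase receptors and cyclic GMP, while Npr3, the clearance receptor, lacks the cyclase domain and removes the peptides by uptake. Pde3b hydrolyses cyclic AMP and is switched on by insulin.

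Each library held 8061862 to 16226690 unique molecular identifiers (UMIs, one per captured RNA molecule) and 2490 to 5776 kept nuclei with median depths of 1380 to 1878 UMIs. No 2 libraries shared more than 0.482% of their cell barcodes. VAT replicate 2 stood apart, since only 153 of its 5070 nuclei were adipocyte-like, 30.6% were mesothelial-like and 13.6% carried ovary or oviduct markers. Cluster names rest on markers and are given without the suffix below, so that adipocytes stands for adipocyte-like nuclei and FAPs for nuclei like fibro-adipogenic progenitors. Levels are CPM, the UMIs of a gene per 1000000 UMIs of a class, summed over the nuclei of 1 library. They were not corrected for gene length, so they are compared between samples and not between genes. The 12 adipocyte markers summed to 16886 to 21488 CPM in the adipocyte nuclei of the 6 libraries, and all 12 were detected.

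Npr3 rose in the adipocytes of old SAT and was the only one of the 8 genes to pass the test between ages there. The gene lies on the minus strand at chr15:11839982-11907373 (GRCm39, GENCODE M39), spans 67.4 kb and has 8 exons in its canonical transcript. In SAT at 2 months its level in adipocytes was 144 CPM in replicate 1 and 86.6 CPM in replicate 2. In SAT at 24 months it was 1666 CPM and 1790 CPM, and in VAT at 24 months 1237 CPM and 984 CPM. Every old library, in either depot, lay far above both young ones. The group means were 115 ± 40.5, 1728 ± 87.4 and 1110 ± 179 CPM (SD, n = 2 each). The log2 fold change between SAT at 24 and 2 months was 4.05 ± 0.35 (SE), a 16.6-fold difference, with an adjusted p of 7.6e-05 (edgeR quasi-likelihood test, Benjamini-Hochberg over 12945 genes). Of these genes 14.1% passed an adjusted p of 0.05 in either direction, 6.66% as higher and 7.42% as lower, and 15 had an adjusted p as low as that of Npr3 or lower, Npr3 included. The immune marker list summed to 608 and 1051 CPM in the young adipocyte sums and to 196 and 152 CPM in the old SAT sums, while the B cell list went the other way, with 1006 and 1137 CPM in young and 4571 and 3342 CPM in old SAT. Their part in the result was not tested beyond the next value. In adipocyte nuclei with no UMI of 6 immune and epithelial genes, the Npr3 difference was 4.15 on the log2 scale.

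The promoter of Npr3 is printed with those of Adrb3 and Pde3b, the other members detected in most adipocyte nuclei. Each is the 250 bases before the start of the Ensembl canonical transcript, 5′ to 3′ on the strand of the gene (GRCm39), at chr15:11906269-11906518 for Npr3, chr8:27720853-27721102 for Adrb3 and chr7:114014198-114014447 for Pde3b. Capitals mark GC boxes (GGGCGG, or CCGCCC for the other strand) and half-sites of the cyclic AMP response element (TGACG, or CGTCA for the other strand).
Npr3: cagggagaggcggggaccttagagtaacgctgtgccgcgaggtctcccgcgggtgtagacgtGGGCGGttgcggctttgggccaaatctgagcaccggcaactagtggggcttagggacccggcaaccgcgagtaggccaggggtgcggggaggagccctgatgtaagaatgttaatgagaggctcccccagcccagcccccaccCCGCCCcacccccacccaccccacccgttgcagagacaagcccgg
Adrb3: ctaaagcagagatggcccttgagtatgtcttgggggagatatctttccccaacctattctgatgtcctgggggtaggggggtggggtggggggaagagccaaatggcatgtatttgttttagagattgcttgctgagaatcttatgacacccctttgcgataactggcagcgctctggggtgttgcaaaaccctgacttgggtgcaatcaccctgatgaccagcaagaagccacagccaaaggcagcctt
Pde3b: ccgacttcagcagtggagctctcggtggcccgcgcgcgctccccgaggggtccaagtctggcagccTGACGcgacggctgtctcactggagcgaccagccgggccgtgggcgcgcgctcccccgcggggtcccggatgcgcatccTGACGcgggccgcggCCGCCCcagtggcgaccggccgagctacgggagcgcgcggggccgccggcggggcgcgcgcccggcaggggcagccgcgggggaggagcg
The Npr3 window holds 2 GC boxes, at -188 to -183 and -45 to -40 from the transcript start, and 17 CG pairs. The Adrb3 window holds neither motif and 2 CG pairs, and the Pde3b window holds 2 half-sites, 1 GC box and 42 CG pairs. Among 21770 protein-coding promoters of this length, 36.3% hold a GC box and 18.0% a half-site on either strand, and the median number of CG pairs is 8. These matches describe letters in the windows and were not tested for binding.

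**Figure D1:**
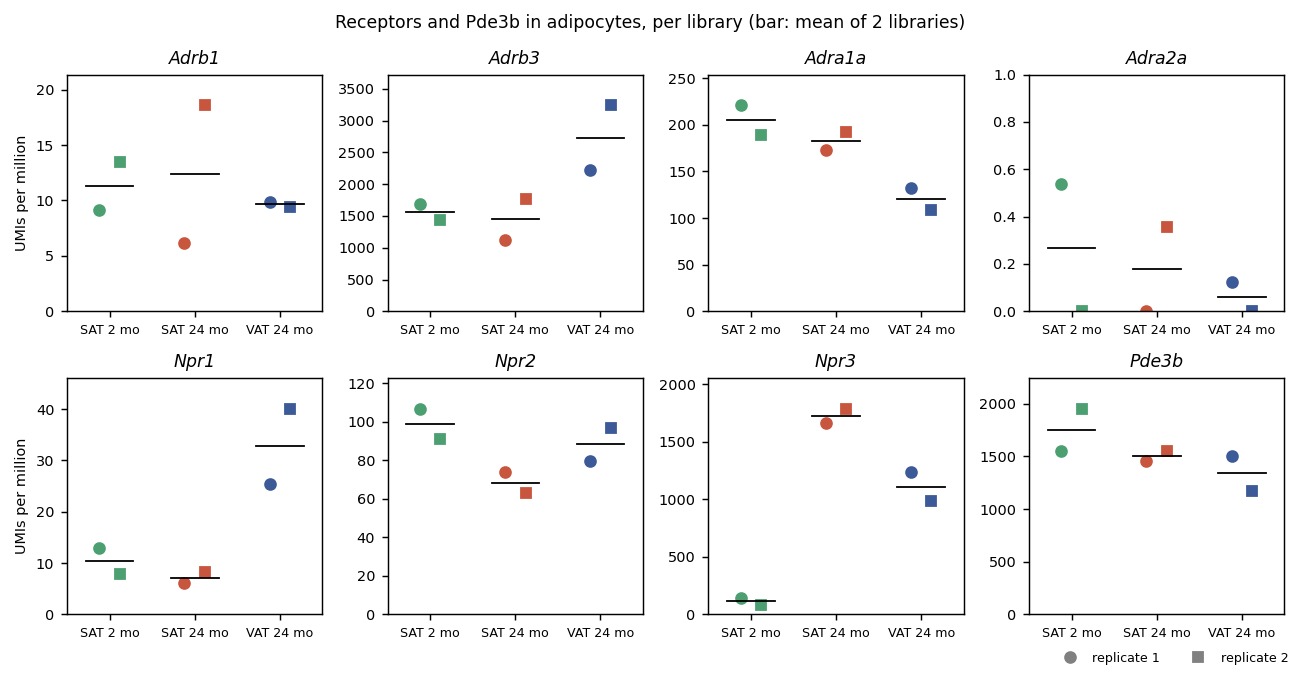
Level of each of the 8 genes in adipocytes in CPM, with 1 point for each library (circles replicate 1, squares replicate 2), a bar for the mean of 2 libraries and a separate axis from 0 for each gene. Npr3 sits at 86.6 to 144 in SAT at 2 months and at 984 to 1790 in the 4 libraries of 24 months, while Adra2a stays below 1 in every library.

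The rise of Npr3 was also seen as a larger share of nuclei. After each nucleus was thinned to 1000 UMIs, 10.6% and 6.43% of adipocyte nuclei of SAT at 2 months held at least 1 Npr3 UMI (95% exact intervals 8.62% to 12.7% and 4.47% to 8.92%). At 24 months the shares were 71.9% (68.4% to 75.3%) and 70.1% (68.2% to 72.0%) in SAT. They were 58.2% (56.4% to 60.004%) and 58.2% (49.9% to 66.1%) in VAT, below both SAT libraries of that age. Without thinning they were 17.0% and 10.1% in young SAT, 84.6% and 83.4% in old SAT, and 75.5% and 75.8% in VAT. The intervals cover counting error only. The SAT age difference of 62.5 points has an exact two-sided permutation p of 0.33, the smallest that 2 against 2 libraries allow. Immune nuclei, which should lack the gene, held a thinned Npr3 UMI in 0.61% and 0.31% of nuclei at 2 months and in 1.39% and 6.33% at 24 months in SAT, far under the adipocyte shares. Median depths were 1233.5 to 1401 UMIs in T and B cell nuclei of SAT and 1542 to 1944 in adipocyte nuclei of SAT.

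The higher level was not limited to one kind of adipocyte nucleus. Adipocytes were divided into 9 sub-clusters without use of the 8 genes. In all 6 sub-clusters with at least 20 nuclei in each of the 4 SAT libraries, both old libraries had more Npr3 than both young ones, with ratios of group means from 7.91 to 55.5. Sub-cluster 5, led by the fatty acid synthesis genes Acaca, Elovl6 and Fasn, had the lowest level in each old library in which it had 20 nuclei. It held 794 CPM and 879 CPM in SAT at 24 months and 212 CPM in VAT replicate 1. The highest levels of the old SAT libraries, 2253 CPM in replicate 1 and 2180 CPM in replicate 2, were in sub-cluster 1, led by Mageb18, Thsd7a and Ccn1, and in sub-cluster 6, led by mitochondrial genes. None of the other 7 genes was higher in both old SAT libraries in more than 1 of these 6 sub-clusters, while Pde3b was lower in both in 3, Adra1a and Npr2 in 2 each, and Adrb3 and Npr1 in 1 each. These sub-cluster values are a description, with no test.

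**Figure D2:**
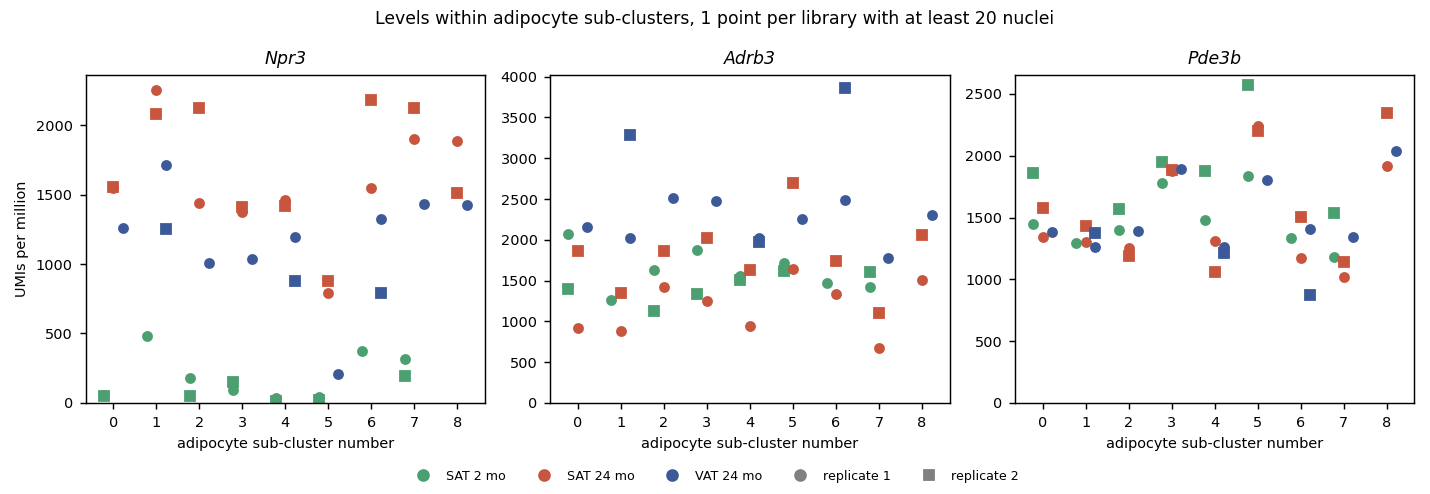
Npr3, Adrb3 and Pde3b in CPM of each adipocyte sub-cluster, with 1 point for each library that had at least 20 nuclei there, coloured by group. For Npr3 the old SAT points stand above the young ones in each sub-cluster where both are drawn. Sub-cluster 5 has the lowest Npr3 point of each old library drawn there. The ages overlap in 5 of 6 sub-clusters for Adrb3 and in 3 of 6 for Pde3b.

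The signalling receptor Npr1, the guanylyl cyclase for atrial and brain natriuretic peptide, was scarce in adipocytes, with 24 and 7 UMIs in the young SAT libraries, 9 and 46 in the old ones and 203 and 17 in VAT. Its levels were 12.9 and 7.87 CPM in SAT at 2 months, 6.16 and 8.21 CPM in SAT at 24 months, and 25.4 and 40.1 CPM in VAT at 24 months. The young and old SAT libraries overlapped, with a log2 fold change of -0.39 ± 0.47 (edgeR adjusted p = 0.628). For each Npr1 UMI, adipocytes of young SAT held 11.2 and 11 UMIs of Npr3, those of old SAT 270 and 218, and those of old VAT 48.8 and 24.5. The log2 ratio of Npr1 to Npr3 was -3.41 ± 0.06 in young SAT, -7.88 ± 0.18 in old SAT and -5.09 ± 0.73 in old VAT (SD, n = 2 each). Neither pair of groups overlapped, and both differences, -4.46 between ages and 2.79 between depots, have an exact permutation p of 0.33, the smallest possible. T and B cell nuclei of the same libraries held 3.16 to 4.92 CPM of Npr1 in SAT, and 74.5 and 39.7 CPM in VAT, where the first value is 4 UMIs in 29 nuclei. The adipocyte level was close to that of lymphoid nuclei in VAT replicate 2, and is not read as above background in VAT. In SAT the lymphoid level was 24.5% and 62.5% of the adipocyte level at 2 months and 62.2% and 55.4% at 24 months. How much of the Npr1 in these ratios is background was not tested. The ratio difference between depots is therefore not read as one of adipocytes.

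Npr2, the receptor for C-type natriuretic peptide, was at 107 and 91.1 CPM in young SAT adipocytes, 74.0 and 62.9 CPM in old SAT and 79.8 and 96.7 CPM in old VAT. The old SAT libraries lay below the young ones without overlap, as was the case in one or the other direction for 60.8% of the genes tested. The log2 fold change of -0.39 ± 0.25 did not pass the test (edgeR adjusted p = 0.326).

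Adrb3, the main beta-adrenergic receptor of rodent fat cells, was at 1684 and 1435 CPM in young SAT adipocytes and at 1119 and 1769 CPM in old SAT, which overlapped. Its log2 fold change of 0.04 ± 0.32 (edgeR adjusted p = 0.949) did not pass and turned to -0.13 when only library size was used for scaling. Adrb1, a beta receptor best known from the heart, was at 9.13 and 13.5 CPM in young and 6.16 and 18.6 CPM in old SAT adipocytes, again overlapping (log2 fold change 0.42 ± 0.54, adjusted p = 0.651). Its direction turned when SAT 24 months replicate 2 was left out (-0.59). Lymphoid nuclei held 9.58 CPM in SAT 24 months replicate 1, above the adipocyte level there, and 1.30 to 4.55 CPM in the other SAT libraries. The thinned shares of adipocyte nuclei with an Adrb3 UMI were 69.6% and 68.2% in young SAT and 56.3% and 72.0% in old SAT.

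Adra1a, an alpha-1 receptor, was at 221 and 189 CPM in young SAT adipocytes and 173 and 193 CPM in old SAT. The libraries overlapped, and the log2 fold change was -0.01 ± 0.24 (edgeR adjusted p = 0.992), a sign that turned with DESeq2 (0.08). Adra2a, the alpha-2A receptor, had 4 UMIs over all 7355 adipocyte nuclei, namely 1 in SAT 2 months replicate 1, 2 in SAT 24 months replicate 2 and 1 in VAT replicate 1. It did not reach the count needed for a test, and no ratio of Adrb3 to Adra2a is given. A count of 0, found in the other 3 libraries, allows up to 3 UMIs, or 3.37, 2.05 and 7.08 CPM in SAT 2 months replicate 2, SAT 24 months replicate 1 and VAT replicate 2.

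Pde3b was at 1550 and 1953 CPM in young SAT adipocytes and at 1451 and 1549 CPM in old SAT. The groups just failed to overlap, but the log2 fold change was -0.06 ± 0.29 after scaling (edgeR adjusted p = 0.924), or 0.03 with DESeq2. In total 1 of the 7 members tested passed between ages in SAT adipocytes, a share near the 14.1% of all genes. Their median log2 fold change was -0.01, against 0.00 over all genes tested.

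**Figure D3:**
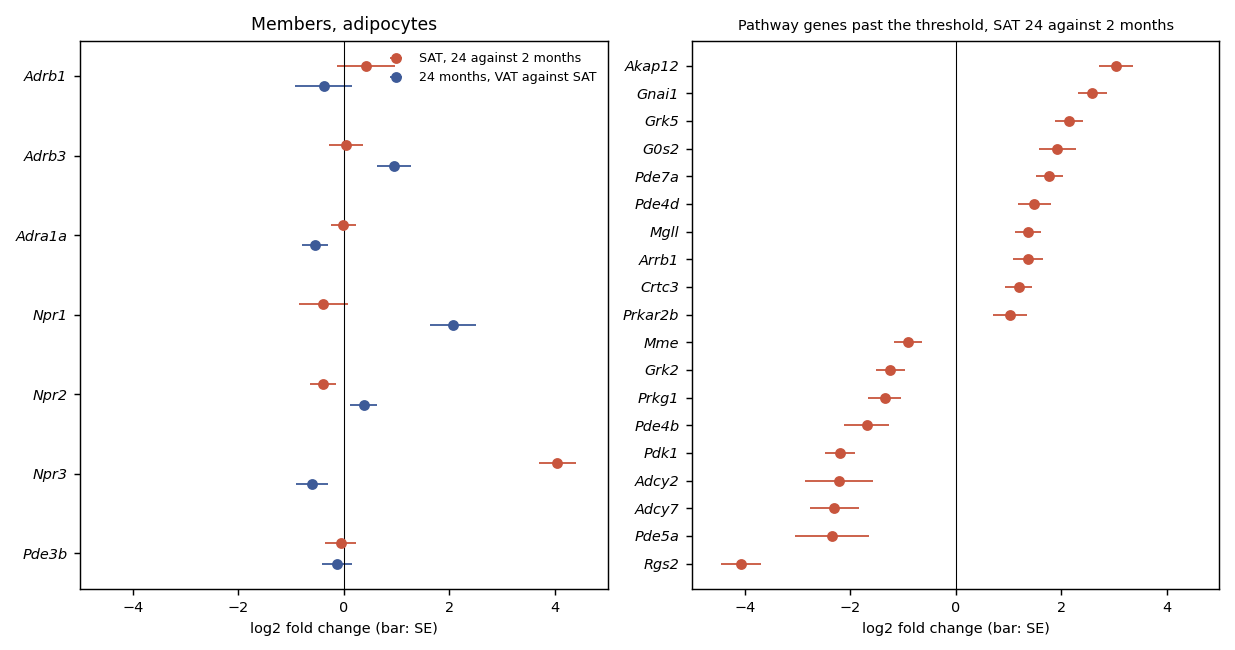
Log2 fold changes in adipocytes with their standard errors, on the left for the 7 members tested in both comparisons and on the right for the pathway genes described in the text that passed the test between SAT at 24 and 2 months. On the left Npr3 at 4.05 between ages is the only point whose test passed, Npr1 at 2.07 is the highest between depots, and the other members lie within 1 of 0.

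The 106 other genes of these pathways were taken from 11 lists, which were drawn up with earlier results of these data known. Of them 85 were tested in SAT adipocytes between ages, of which 11 were higher and 10 lower, where 6.66% of all 12945 genes were higher and 7.42% lower, and their median log2 fold change was -0.07. The calls of Gnai1, Akap12, Pde7a, Grk5, Rgs2 and Pdk1, held under every alternative run. The other calls were each lost under some alternative, but every direction held in all 14. Fewer passed when a young SAT library was left out. Such a fit has 1 library in that group and less power, so it cannot show that a call rests on the library. The genes described are up to 3 in each direction of each list.

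Among 8 G protein subunits tested 1 passed, a share near the 14.1% of all genes. Gnai1, an inhibitory alpha subunit through which alpha-2 receptors lower cyclic AMP, rose from 113 and 85.5 CPM to 531 and 550 CPM (log2 fold change 2.59 ± 0.27, edgeR adjusted p = 0.00018). Of 7 adenylyl cyclases none was higher and 2 were lower, Adcy7 (-2.30 ± 0.47) and Adcy2 (-2.21 ± 0.64). Adcy2 was at only 23.1 and 11.2 CPM in young and 4.79 and 2.68 CPM in old SAT adipocytes. Lymphoid nuclei of young SAT held 8.78 and 8.55 CPM of it, and its call held in only 8 of 14 alternative settings. Of 10 kinase subunits and anchors, Akap12, a scaffold that holds protein kinase A near beta receptors, rose by 3.04 ± 0.33 on the log2 scale, and Prkar2b, a regulatory subunit of that kinase abundant in fat, by 1.03 ± 0.32. Prkg1, the kinase activated by cyclic GMP, fell by 1.35 on the log2 scale (SE 0.31), from 59.6 and 65.2 CPM to 25.3 and 19.3 CPM. The calls of Prkar2b and Prkg1 each held in only 8 of 14 alternative settings.

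Of 14 phosphodiesterases other than Pde3b, 2 were higher and 2 lower, where 6.66% and 7.42% of all genes were. Pde7a and Pde4d, both selective for cyclic AMP, rose by 1.77 ± 0.26 and 1.49 ± 0.31 on the log2 scale. Pde7a went from 168 and 164 CPM to 460 and 555 CPM. Lymphoid nuclei held 386 and 401 CPM of it in young SAT and 445 and 614 CPM in old SAT. Pde4d went from 430 and 397 CPM to 1208 and 856 CPM. The lower ones were Pde4b, another enzyme for cyclic AMP, and Pde5a, which hydrolyses cyclic GMP, with log2 fold changes of -1.68 ± 0.43 and -2.34 ± 0.70. The call held in 10 of 14 alternative settings for Pde4b but in only 4 of 14 for Pde5a (edgeR or DESeq2 adjusted p up to 0.419), which was at no more than 14.0 CPM in any SAT library.

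Of 8 genes of receptor desensitisation, 2 rose and 2 fell, where 14.1% of all genes passed in either direction. The receptor kinase Grk5 rose by 2.15 ± 0.27 and the arrestin Arrb1 by 1.37 ± 0.28 on the log2 scale. Grk5 went from 32.2 and 46.1 CPM to 143 and 160 CPM in adipocytes. In lymphoid nuclei of SAT it went from 29.1 and 38.1 CPM to 140 and 264 CPM, so the higher level was not limited to adipocytes. Lymphoid nuclei of young SAT held 48.1 and 53.6 CPM of Arrb1, above the 26.8 and 41.6 CPM of adipocytes. Grk2, the kinase that phosphorylates active beta receptors, fell, with a log2 fold change of -1.24 ± 0.28. Rgs2, which ends signalling by Gq, went from 108 and 146 CPM to 3.42 and 8.39 CPM (-4.07 ± 0.38, adjusted p = 0.00013).

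Of 8 lipolysis effectors, 2 rose and none fell, where 6.66% of all genes rose and 7.42% fell. G0s2, the inhibitor of adipose triglyceride lipase, rose from 242 and 310 CPM to 596 and 1290 CPM, and Mgll, which splits monoacylglycerol, by 1.37 ± 0.25 on the log2 scale. The hormone-sensitive lipase gene Lipe (-0.35 ± 0.28) and Pnpla2, which encodes adipose triglyceride lipase (-0.16 ± 0.27), did not pass. Of the remaining lists, that of cyclic AMP-induced transcription had 1 call, the coactivator Crtc3, which was higher (1.19 ± 0.26). Pdk1 was lower by name in the insulin list (-2.19 ± 0.29), though this symbol denotes a kinase of pyruvate dehydrogenase in mice and not a kinase of the insulin pathway.

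Mme, the endopeptidase neprilysin that degrades natriuretic peptides, was lower (-0.91 ± 0.27, edgeR adjusted p = 0.043). Its call held in only 6 of 14 alternative settings. Lymphoid nuclei of young SAT held 367 and 381 CPM of Adcy7, 579 and 547 CPM of Grk2 and 132 and 133 CPM of Pde4b, all well above the adipocyte values. They also held 160 and 206 CPM of Pdk1, against 80.0 and 100.1 CPM in adipocytes, and 79.4 and 72.3 CPM of Prkg1, slightly above the adipocyte values. Pdk1 was at 44.1 and 45.5 CPM in lymphoid nuclei of old SAT. In adipocyte nuclei without the 6 immune and epithelial genes the log2 fold changes were -2.19 for Adcy7, -1.29 for Grk2, -1.83 for Pde4b, -2.19 for Pdk1 and -1.68 for Prkg1, all past the test, whereas Mme (-0.84, adjusted p = 0.070) and Pde5a (-2.26, adjusted p = 0.079) no longer passed, with folds close to those of all adipocyte nuclei. Mme was at 7.73 and 5.44 CPM in lymphoid nuclei of young SAT, far below its adipocyte level of 114 and 101 CPM.

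Between the old depots, none of the 7 members tested in adipocytes passed an adjusted p of 0.05 with edgeR, none passed with DESeq2, and 3 had an unadjusted p below 0.05. Of all 12945 genes 0.131% passed. The first of the 3 was Npr1, higher in VAT at 25.4 and 40.1 CPM against 6.16 and 8.21 CPM in SAT (log2 fold change 2.07 ± 0.44, adjusted p = 0.139). It passed when genes of low count were kept in the table (adjusted p = 0.012). Lymphoid nuclei of the VAT libraries held 74.5 and 39.7 CPM, 294% (on only 4 UMIs) and 99.1% of the adipocyte level, so this is not read as a difference between adipocytes of the depots. Adrb3 was at 2227 and 3238 CPM in VAT against 1119 and 1769 CPM (0.95 ± 0.32, adjusted p = 0.579), and Adra1a at 133 and 108 CPM against 173 and 193 CPM (-0.54 ± 0.25, adjusted p = 0.720). Npr3 was lower in VAT with no overlap (-0.60 ± 0.31, adjusted p = 0.762). Groups did not overlap for 35.1% of all genes tested, and for 5 of these 7. No gene of the 11 pathway lists passed between depots, of 85 tested. The VAT side rests on 2902 and 153 adipocyte nuclei, and VAT replicate 2 carried 285 CPM of ovary or oviduct markers in its adipocyte sum against 16.0 to 58.5 CPM elsewhere. Without it the log2 fold change of Npr1 was 1.83 and that of Adrb3 0.69.

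Across the classes of nuclei, Adrb3 and Pde3b stood highest in adipocytes in every library. Adrb3 averaged 1912 ± 747 CPM in adipocytes and 293 ± 313 CPM in endothelial nuclei, the next class (SD over 6 libraries), and the ranges did not overlap. Pde3b averaged 1530 ± 250 CPM in adipocytes and 269 ± 92.4 CPM in T cell nuclei (n = 5), again without overlap. One endothelial sub-cluster of 115 nuclei was led, relative to the other endothelial nuclei, by genes that include Ghr and Tshr, which adipocytes also express, and its part in the endothelial Adrb3 level was not tested. In 5 of the 6 libraries T and B cell nuclei held a larger share of the adipocyte level for Pde3b than for Adrb3 or Adipoq. The share was 9.95% to 18.5% of the adipocyte level of the same library for Pde3b, against 0.253% to 5.92% for Adrb3 and 2.76% to 9.41% for the adipocyte gene Adipoq in those 5. In VAT replicate 1, where only 29 lymphoid nuclei were found, Pde3b was at 16.1%, Adrb3 at 15.9% and Adipoq at 28.6%, so Pde3b is not read as above background there.

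Adra1a too was highest in adipocytes, at 169 ± 41.5 CPM, but the spread of the next class overlapped with it, since 52 ovary or oviduct nuclei of SAT 24 months replicate 2 reached 236 CPM. Those nuclei also held 663 CPM of Adrb3, 1060 CPM of Npr3 and 604 CPM of Pde3b, whereas the 690 such nuclei of VAT replicate 2 held 9.91 CPM of Adra1a and 19.2 CPM of Adrb3, so the overlap is not read as a level of that class. Npr3 averaged 985 ± 734 CPM in adipocytes with the ages pooled, and overlapped with the classes that followed.

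Npr1 was arranged the other way round. FAPs averaged 285 ± 95.2 CPM and endothelial nuclei 283 ± 116 CPM (n = 6 each), with overlapping ranges. Mesothelial nuclei had 358 and 679 CPM in the VAT libraries but 18.2 CPM, on 1 UMI, in the 1 SAT library with at least 20 of them, and smooth muscle or pericyte nuclei had 498 CPM in VAT replicate 2 and 91.4 CPM in SAT 24 months replicate 2, so the pooled means of these classes, 351 ± 330 CPM (n = 3) and 295 ± 288 CPM (n = 2), rest on VAT. Adipocytes at 16.8 ± 13.4 CPM were next to last of 14 classes. Each of the 6 libraries had more Npr1 in FAPs than in adipocytes. Npr2 was spread more evenly, at 115 ± 39.2 CPM in endothelial nuclei, 99.8 ± 26.5 CPM in FAPs and 85.2 ± 16.1 CPM in adipocytes, and these neighbours did not separate. Adrb1 had its highest mean in epithelial nuclei, at 48.9 ± 18.0 CPM (n = 5) against 11.1 ± 4.34 CPM in adipocytes. Its epithelial range of 20.7 to 69.2 CPM overlapped with that of smooth muscle or pericyte nuclei, the next class (17.8 to 39.2 CPM, n = 2). Skeletal muscle nuclei reached up to 76.3 CPM. Adra2a did not exceed a mean of 8.33 CPM in any class, that of lymph node nuclei, on 11 UMIs.

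**Figure D4:**
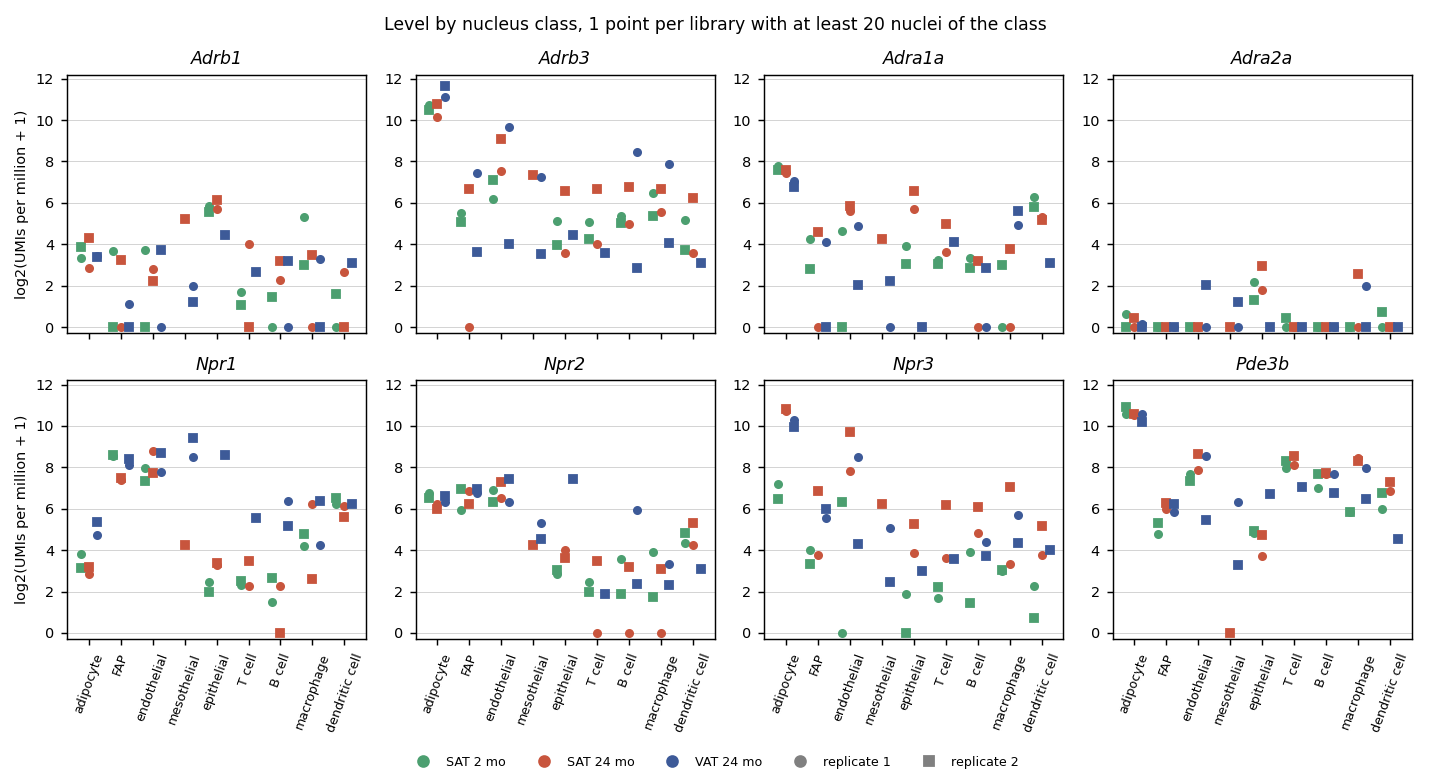
Level of each gene as log2(CPM + 1) in 9 classes, with 1 point for each library that had at least 20 nuclei of the class, coloured by group. Adrb3 and Pde3b peak in adipocytes, Npr1 is high in FAPs, endothelial nuclei and the mesothelial nuclei of VAT and low in adipocytes and in the 1 SAT mesothelial point, and Npr3 shows young SAT points well under the old ones in adipocytes.

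In FAPs, Npr1 was at 372 and 382 CPM in young SAT, 164 and 180 CPM in old SAT and 278 and 336 CPM in old VAT. The SAT groups did not overlap, but none of the 5 members tested passed with edgeR (log2 fold change of Npr1 -1.12 ± 0.42, adjusted p = 0.349) or DESeq2. Unadjusted p-values were below 0.05 for Npr1 and Npr3, and no gene of 7862 passed between ages (0%). Npr3 in FAPs was at 14.9 and 8.89 CPM in young SAT and at 12.6 and 115 CPM in old SAT, so that SAT 24 months replicate 2 set its log2 fold change of 2.69 ± 0.76. Without that library it was 0.06. Between depots none of the 5 passed with either tool or had an unadjusted p below 0.05, and 0.0509% of genes passed.

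In epithelial nuclei of SAT, 2 of the 7 members tested passed between ages, where 5.54% of 12616 genes did. Adra1a was at 14.3 and 7.36 CPM in young and at 50.6 and 94.9 CPM in old SAT (2.67 ± 0.42, edgeR adjusted p = 0.0021). Its level in the immune nuclei of the same libraries stayed between 17.4 and 20.4 CPM. That pool includes dendritic cell nuclei, which held 55.5 to 77.7 CPM in young and 34.8 to 39.6 CPM in old SAT. T and B cell nuclei held 8.78 and 6.99 CPM in young and 5.75 and 18.2 CPM in old SAT. The old epithelial values stood above all of these levels of old SAT. The young ones, on 16 and 5 UMIs, are not read as above background. Npr3 was at 2.68 and 0 CPM in young and 13.6 and 36.8 CPM in old SAT epithelial nuclei (3.86 ± 0.85, adjusted p = 0.019), on 3, 0, 11 and 43 UMIs. The call was lost without SAT 24 months replicate 2 (2.93). In the immune nuclei it was at 5.64 and 3.42 CPM in young and at 13.04 and 71.3 CPM in old SAT, so the epithelial level was close to or below theirs in each library and is read as background. With DESeq2 Adra1a did not pass, and Npr3 was given no adjusted p. No test between depots could be made, since VAT replicate 1 had no epithelial nuclei.

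Elsewhere no member passed between ages or depots with edgeR. In immune nuclei 7 members were tested and 2 had an unadjusted p below 0.05 between ages and none between depots, where 0% of genes passed in each, and DESeq2 called none. Endothelial nuclei gave 1 of 5 below 0.05 unadjusted between ages and none between depots, with 0.0155% and 0% of genes passing and none called by DESeq2. In macrophages, Pde3b was at 56.4 and 56.9 CPM in young SAT, 355 and 313 CPM in old SAT and 252 and 86.2 CPM in old VAT. That gap between ages, 2.64 ± 0.51 on the log2 scale, had an adjusted p of 0.105 where 0.0399% of genes passed. In T cells, where 8.21% of genes passed, Pde3b was at 246 and 320 CPM in young and 275 and 377 CPM in old SAT (0.12 ± 0.24, adjusted p = 0.823). No member passed in B cells either, where 1.38% of genes did, nor in macrophages between depots (0.0799%). Mesothelial nuclei were too few in SAT for a test.

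With all nuclei summed, none of the 8 members passed with edgeR in either comparison, where 0% of 21729 genes passed between ages and 0.0138% between depots. DESeq2 called Npr3 between ages and Npr1 between depots. Unadjusted p-values were below 0.05 for 1 member between ages and 2 between depots. Npr3 was at 34.0 and 11.6 CPM in young and 495 and 1064 CPM in old SAT, and in such sums more adipocytes and more RNA per adipocyte cannot be told apart.

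Over 47 sums of 1 class in 1 library, the genes with the level most like Adrb3 were Lipe (Pearson r 0.92), Plin1 (0.91) and Ankef1 (0.90) among 20288 genes compared on log2(CPM + 1). Those most like Npr3 were Nnat (0.83), Lep, which encodes leptin (0.82), and Pparg (0.81). Npr1 was most like Plat (0.83), Layn and Rnf213, Npr2 most like Fsd1l (0.84), and Pde3b most like Pon3 (0.82). These correlations describe 47 points that share 6 libraries and their depth, with the classes as the main axis.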

How the data were processed

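Nuclei were isolated from fat and sequenced after capture with a Singleron kit, and the authors mapped reads to GRCm39 with CeleScope. The deposited values are raw UMI counts per gene and barcode, 1 matrix per library. The counting of intronic reads is not given in the sources used here. The study's filter was applied again, keeping barcodes above 500 detected genes and 1000 UMIs whose mitochondrial share was below 15%. Nuclei were corrected by library on 30 principal components of 1000 variable genes without the 8 members, and clustered (Leiden, resolution 2.0, scanpy 1.11.5). Scrublet marked only 36 nuclei (0.133%) and was taken as not having worked, so no doublets were removed, and 11 sub-clusters with more listed markers of another class than of their own among their leading genes (1869 nuclei) were left out. Clusters were named from marker lists and 2812 nuclei stayed unnamed. Counts were summed per library and class (at least 20 nuclei) and tested with edgeR 4.0.16 (quasi-likelihood, TMM scaling, low-count filter, one fit over the 3 groups, Benjamini-Hochberg over all genes of a class), with calls at an adjusted p under 0.05. DESeq2 1.42.0 was an alternative. Both depots at 24 months and both ages of SAT were compared, so the comparisons share the SAT 24 months libraries. Members and gene lists were chosen with earlier results of these data known. Named genes are the members, up to 3 called pathway genes per list and direction by size of the log2 fold change, and the 3 genes most like each member. Simulated counts with known changes were recovered in 88.0% of genes at a log2 change of 2, 55.3% at -2, 4% at 1 and 10.2% at -1 (adipocytes, between ages), with 9.41% false calls, so members that did not pass may differ by amounts of this size. VAT at 2 months was not analysed here. Some results that belong to these lists are not reported here, though the counts over the lists include them.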

Additional observations from a re-analysis of the deposited data

Results flagged for a closer look

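Barcodes below the nuclei filter, which entered no comparison, also carried Npr3. The lower of the SAT 24 months libraries held 131 CPM there (UMIs per 1000000 UMIs) and the other 531, against 24.9 and 10.1 in SAT at 2 months, and 182 and 21.6 in VAT. This was flagged because it is a signal outside the nuclei analysed that was higher in both old SAT libraries than in both young ones. The share of these barcodes that are nuclei was not tested.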

How the results depend on the processing

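Npr3 in adipocytes between ages passed under all 14 alternatives (log2 fold change 3.76 to 4.53). Without the filter on low counts 1 member passed between depots in adipocytes (Npr1), 1 between ages in FAPs and 1 in immune nuclei (Npr3 in each), 2 in endothelial nuclei and 2 in all nuclei (Adrb3 and Npr3), and 1 between depots in all nuclei (Npr1). With DESeq2 1 passed in all nuclei in each comparison and 0 in epithelial nuclei, where 1 (Adra1a) passed with the members among the variable genes. Leaving out 1 library gave 0 to 4 members between depots in all nuclei, 0 to 3 in endothelial nuclei (the highest without VAT replicate 1 in both) and 1 to 2 between ages in epithelial nuclei. The looser nuclei filter gave an age difference of -4.19 in the log2 ratio of Npr1 to Npr3. Without thinning, the Npr3 share differed by 70.4 points between ages and -8.34 between depots.

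Directions that turned were all of members that did not pass. For Adra1a between ages these were 0.0824 with DESeq2, 0.24 without the filter, 0.062 with looser nuclei, 0.0357 with members variable, 0.0252 without library correction, 0.0159 without immune or epithelial UMIs and -0.10 to 0.16 without 1 library. For Pde3b between ages they were 0.0305 with DESeq2, 0.20 without the filter and -0.17 to 0.13 without 1 library, and between depots 0.0746 without library correction and -0.40 to 0.0619. For Adrb3 between ages the values were -0.13 with library-size scaling and -0.24 to 0.39. For Adrb1 they were -0.20 without library correction and -0.59 to 0.97 between ages, and 0.37 and -0.87 to 0.64 between depots. Without 1 library, Npr1 between ages ranged from -0.63 to 0.11 and Npr3 between depots in FAPs from -1.12 to 2.10.

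The correlation of same-numbered deviations was 0.118 between old SAT and VAT, which share 2 mice, and -0.0918 and 0.0265 between the other groups. Whether the numbers mark the mice is not given in the sources used here. With a replicate block 1 member passed between ages and 0 between depots in adipocytes, Npr3 was at 4.10, Adra1a at 0.0079, and 12 pathway genes were higher and 10 lower. Pathway genes were 14 higher and 5 lower with DESeq2 and 10 and 4 without library correction. Removal of Scrublet calls was not run, and the top 6% of doublet scores were removed instead, a choice made after seeing the data. With 2 libraries per group, differences near 1 on the log2 scale are seldom detected.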
